A study of Homo sapiens with 8 samples.

Results

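KRT6A, KRT6B, KRT6C, KRT16 and KRT17 are the stress and wound keratins of the epidermis, and these 5 genes were taken by symbol from a count table of 34415 gene symbols, which held all 5 of them among 55 keratin symbols. The libraries came from HaCaT, human epidermal keratinocytes that became immortal spontaneously in culture, used here between passages 21 and 33. Every culture spent 96 h in medium with 35 mM glucose (5.5 mM before), and for 48 h it carried a transfected small interfering RNA (siRNA), directed against the ETS transcription factor ETV4 in 4 cultures (siETV4) and a negative control in the other 4 (siNC). High glucose and transfection were thus shared by both groups, a culture at normal glucose was not analysed here, and the values compare the siRNAs only. The submitters call the 4 cultures of a group independent biological replicates of this single cell line.

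Keratins are the intermediate filament proteins of epithelial cells. A filament is built from heterodimers of 1 type I and 1 type II chain, so each cell needs both types. Resting basal keratinocytes hold the pair KRT5 and KRT14, and keratinocytes that differentiate switch to KRT1 and KRT10. After wounding, and in psoriasis and other states of rapid growth or inflammation, epidermal keratinocytes switch on the type II chains KRT6A, KRT6B and KRT6C with the type I partners KRT16 and KRT17. KRT17 is also induced by interferon-gamma and is known to act in keratinocyte growth and inflammatory signalling beside its mechanical role.

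The type II genes of the set lie side by side on chromosome 12 of GRCh38 (KRT6B from 52446651 to 52452146, KRT6C from 52468516 to 52473805, KRT6A from 52487176 to 52493257), and the type I genes lie on chromosome 17 (KRT16 from 41609778 to 41612767, KRT17 from 41619442 to 41624575). All 5 are protein-coding. Since close copies can share reads, the reference sequences behind the counts are shown first. The coding sequence of KRT6A, 1695 bases long, was 97.5% identical to that of KRT6B and 97.9% identical to that of KRT6C, with runs of up to 349 identical bases. Below is a coding stretch of 60 bases from exon 2 of each gene on the minus strand (GENCODE v29, GRCh38), read 5′ to 3′. It was chosen, within single exons, so that the copy nearer to KRT6A differed from it at as many bases as possible. Capitals in the KRT6A line mark bases at which a copy differs, and capitals in the other lines mark bases that differ from KRT6A.
KRT6A, chr12:52491555-52491614: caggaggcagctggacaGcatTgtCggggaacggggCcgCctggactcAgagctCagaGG
KRT6B, chr12:52450439-52450498: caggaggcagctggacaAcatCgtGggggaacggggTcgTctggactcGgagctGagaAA
KRT6C, chr12:52472099-52472158: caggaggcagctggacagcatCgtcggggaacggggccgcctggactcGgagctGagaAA
In this stretch KRT6B differed from KRT6A at 9 bases and KRT6C at 5. Of all windows of 75 bases in the KRT6A transcript, 26.2% occurred exactly in another keratin gene of the count table, and 9.26% of windows of 150 bases did. The sources used here do not give the read length.

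The type I genes are less alike. KRT17 was 78.8% identical to KRT16 and 84.8% identical to KRT14 over the aligned coding bases. The stretch of 60 bases where these 3 genes are closest lies in exon 1 (minus strand), where the central rod domain of the protein begins, the part that pairs with a type II chain and that keratins share most. Capitals mark the base at which KRT17 differs from the other lines.
KRT17, chr17:41624192-41624251: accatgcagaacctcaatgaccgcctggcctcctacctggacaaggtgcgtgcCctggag
KRT16, chr17:41612272-41612331: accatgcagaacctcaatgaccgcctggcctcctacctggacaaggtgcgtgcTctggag
KRT14, chr17:41586424-41586483: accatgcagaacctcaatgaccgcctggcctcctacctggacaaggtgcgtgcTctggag
No window of 75 bases in the KRT17 transcript (0 of 1577) occurred in another keratin gene of the count table. Pseudogenes held 4.19% of the windows of 75 bases and 0 of 1502 windows of 150 bases. In KRT16, 5.35% of windows of 75 bases also occurred in KRT14, and 0.602% of windows of 150 bases. The RefSeq table lists 8 KRT17 and 6 KRT16 pseudogenes, 0 of which have a row in the count table.

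Each library held between 35057643 and 41657753 counts. The siRNA target was low in siETV4: ETV4 stood at 1.83 to 3.10 CPM (the CPM scale, counts over library size, with sizes adjusted by the TMM method) against 19.8 to 32.0 CPM in siNC. All 10 keratinocyte markers examined, among them KRT5, KRT14 and TP63, had a mean of at least 1 CPM. The summed markers of fibroblasts (3.45 to 6.44 CPM), melanocytes (4.28 to 8.95 CPM), leukocytes (16.7 to 25.2 CPM, led by CD68) and endothelium (14.0 to 21.9 CPM, led by CDH5) were low, and their siETV4 and siNC ranges overlapped. COL1A2, LUM, MLANA, TYR, PTPRC, CD207 and KDR were at 0 in all 8 libraries. 1 control stood apart: the deviation of siNC replicate 4 from the mean of all libraries followed the GC content of genes with Spearman's rho -0.60 across genes, against 0.53 to 0.64 in the other siNC libraries and -0.65 to 0.21 in siETV4. Results are therefore also given without it, or with the trends of each library with GC content and gene length removed. Without siNC replicate 4, every siNC library left has a higher rho than every siETV4 library. In that comparison the siRNA and the GC content trend cannot be told apart.

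KRT17 was the 1 member of the set that was called, and it was higher in siETV4. Its level was 222, 219, 227 and 171 CPM in siNC replicates 1 to 4 and 367, 470, 379 and 410 CPM in siETV4 replicates 1 to 4. The lowest siETV4 library lay well above the highest siNC library, so the groups did not overlap. Group means of 406 ± 46.1 and 210 ± 26.1 CPM (SD over 4 libraries each) gave a log2 fold change of 0.95 (SE 0.11), or 1.94-fold, and it passed the quasi-likelihood test of edgeR (p adjusted by Benjamini-Hochberg over the 13572 genes tested, 0.00636). By p value KRT17 was the 8th gene of the table and by log2 fold change the 144th from the top. In all, 0.236% of genes tested were called at an adjusted p under 0.05, and 0.118% were called higher. In RNA from whole cultures, a change in the share of cells that express a gene and a change in the RNA per cell cannot be told apart.

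KRT16, the other type I member and the next gene on the chromosome, stood at 5.56, 7.26, 7.10 and 4.68 CPM in siNC replicates 1 to 4 and at 7.57, 8.37, 7.34 and 7.70 CPM in siETV4 replicates 1 to 4. Every siETV4 library was above every siNC library, but siETV4 replicate 3 and siNC replicate 2 were close neighbours. The means were 7.75 ± 0.444 and 6.15 ± 1.24 CPM (SD, n = 4 each), and the log2 fold change of 0.33 (SE 0.17) did not pass (edgeR adjusted p 0.427). KRT16 came nearest to the threshold once trends with GC content and length were removed (log2 fold change 0.48, SE 0.12, edgeR adjusted p 0.0711), and with siNC replicate 4 left out in addition (0.44, SE 0.13, edgeR adjusted p 0.0641).

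KRT6A, the type II member with nearly all KRT6 counts, leaned the other way. It stood at 154, 161, 173 and 144 CPM in siNC replicates 1 to 4 and at 126, 132, 120 and 119 CPM in siETV4 replicates 1 to 4. Again the groups did not overlap, here with siETV4 below siNC. Means of 124 ± 5.79 and 158 ± 12.01 CPM (SD over 4 libraries each) gave a log2 fold change of -0.35 (SE 0.09), which did not pass over all genes (edgeR adjusted p 0.181). Without siNC replicate 4 it passed (log2 fold change -0.39, SE 0.08, edgeR adjusted p 0.0134), in a comparison where 16.9% of all genes were called and 4.88% were called lower. Once trends with GC content and length were removed the difference was smaller and did not pass (log2 fold change -0.22, SE 0.06, edgeR adjusted p 0.0916). It did not pass with DESeq2 either (adjusted p 0.0763), where 0.797% of genes were called, 0.452% higher and 0.345% lower.

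KRT6B and KRT6C, the other type II copies, were close to 0. KRT6B had 21, 4, 2 and 7 counts in siNC replicates 1 to 4 and 1, 1, 1 and 3 in siETV4 replicates 1 to 4, so the groups overlapped at these few counts. The sums were 34 counts in siNC (95% exact Poisson interval 23.6 to 47.5) and 6 in siETV4 (2.20 to 13.1). These intervals cover counting error only, and siNC replicate 1 alone held 21 of the 34 counts. KRT6C had 0, 5, 1 and 2 counts in siNC replicates 1 to 4 and 2, 1, 3 and 1 in siETV4 replicates 1 to 4. Neither gene passed the filter on low counts, so neither was tested with the other genes. Without the filter neither was called (edgeR adjusted p 0.480 for KRT6B and 0.927 for KRT6C). KRT6A held at least 99.7% of the counts of the KRT6 genes in every library, and adding the other copies to it left the log2 fold change at -0.35 (SE 0.09). The sources used here do not say how reads that fit more than 1 copy were treated.

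**Figure D1:**
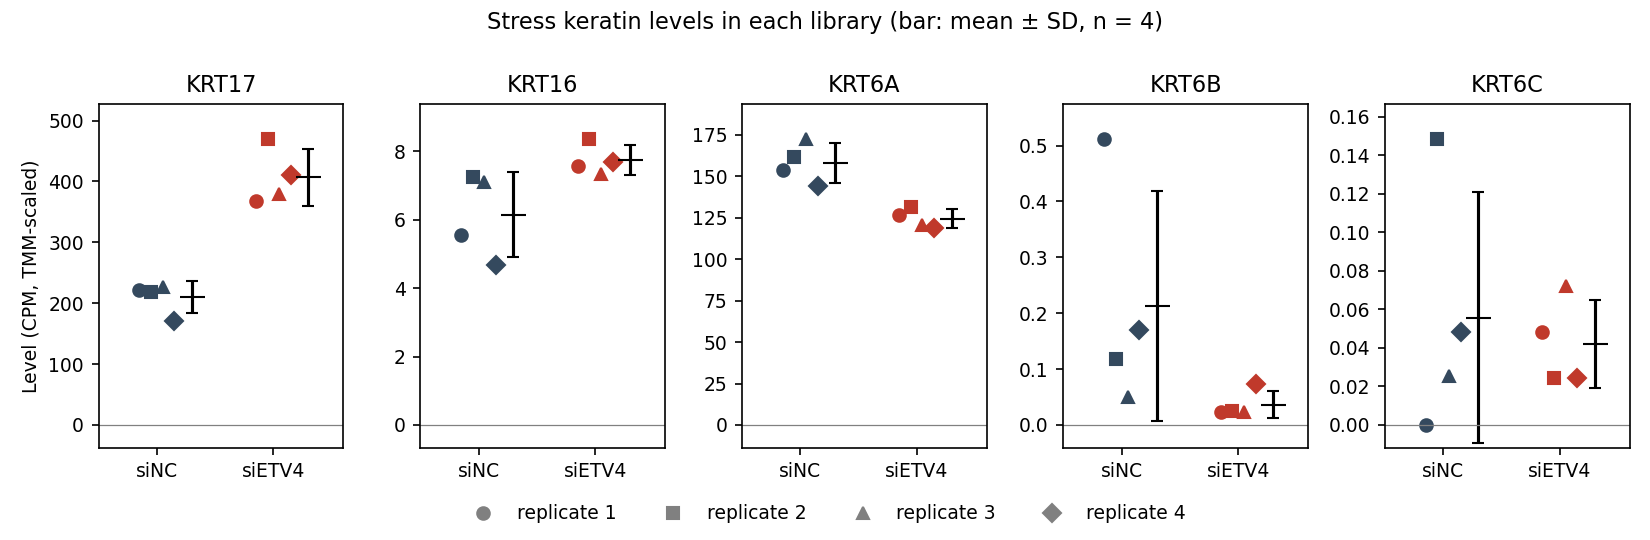
Level of each stress keratin in CPM (vertical axes, each with its own scale) in the 4 siNC and 4 siETV4 libraries. Symbols give the replicate number, and black bars the mean ± SD. KRT17 sits at 367 to 470 CPM in siETV4 and 171 to 227 CPM in siNC, KRT16 is slightly higher and KRT6A lower in siETV4 with no overlap, and KRT6B and KRT6C stay under 1 CPM.

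Of the 5 members, 3 were thus tested and 1 was called, where 0.236% of all genes tested were called. The groups of all 3 tested members did not overlap, against 6.55% of all genes tested (2.62% with siETV4 higher and 3.93% with siETV4 lower). The 3 genes shared their extremes within each group: siNC replicate 4 was the lowest siNC library and siETV4 replicate 2 the highest siETV4 library for KRT17, KRT16 and KRT6A alike. These were also the siNC library with the most negative and the siETV4 library with the most positive GC content trend (rho -0.60 and 0.21). The transcripts of the members held 55.8 to 61.0% GC, above the median of 48.4% over tested genes. Once trends with GC content and length were removed KRT17 had a log2 fold change of 1.07 (SE 0.05, edgeR adjusted p 5.05e-07), so its difference was as large without these trends. In that comparison 1.76% of genes were called.

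Levels can be compared between genes only per length, for which the deposited FPKM values were used (fragments scaled to gene length and library total). In siNC the order among the members was KRT17 (136 ± 14.0 FPKM), KRT6A (67.4 ± 3.79 FPKM), KRT16 (3.64 ± 0.649 FPKM), then KRT6B (0.0913 ± 0.0880 FPKM) and KRT6C (0.0235 ± 0.0270 FPKM), SD with n = 4. Only the last pair of neighbours lay within its spread. In siETV4 KRT17 reached 272 ± 25.5 FPKM while KRT6A stood at 54.7 ± 1.66 and KRT16 at 4.74 ± 0.167 FPKM. KRT17 moved from rank 485 to rank 220 among all genes by mean FPKM. The summed type I members were 2.07 ± 0.167 times the summed KRT6 genes in siNC and 5.05 ± 0.458 times in siETV4 (ratios of FPKM), with no overlap between the groups.

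Against the whole keratin complement of these cells, the stress keratins were a minor part. Simple-epithelial and basal keratins led: KRT7 (1479 FPKM in siNC), KRT19 (1365), KRT8 (1078), KRT18 (566), KRT5 (546) and KRT14 (462). The differentiation pair was uneven, with KRT10 at 29.5 FPKM in siNC and KRT1 at 0 to 4 counts per library. KRT17 made up 4.72, 4.72, 4.70 and 4.48% of the summed type I FPKM in siNC replicates 1 to 4, and 9.55, 9.76, 9.38 and 10.1% in siETV4 replicates 1 to 4. Its share was nearly constant within each group. KRT16 supplied only 0.170 ± 0.00923% in siETV4 and 0.124 ± 0.0170% in siNC. KRT6A made up 1.71 ± 0.129% of the summed type II FPKM in siETV4 and 2.09 ± 0.176% in siNC. The sums themselves overlapped between the groups, at 2798 ± 237 and 2916 ± 237 FPKM for type I and 3208 ± 269 and 3234 ± 321 FPKM for type II in siETV4 and siNC.

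**Figure D2:**
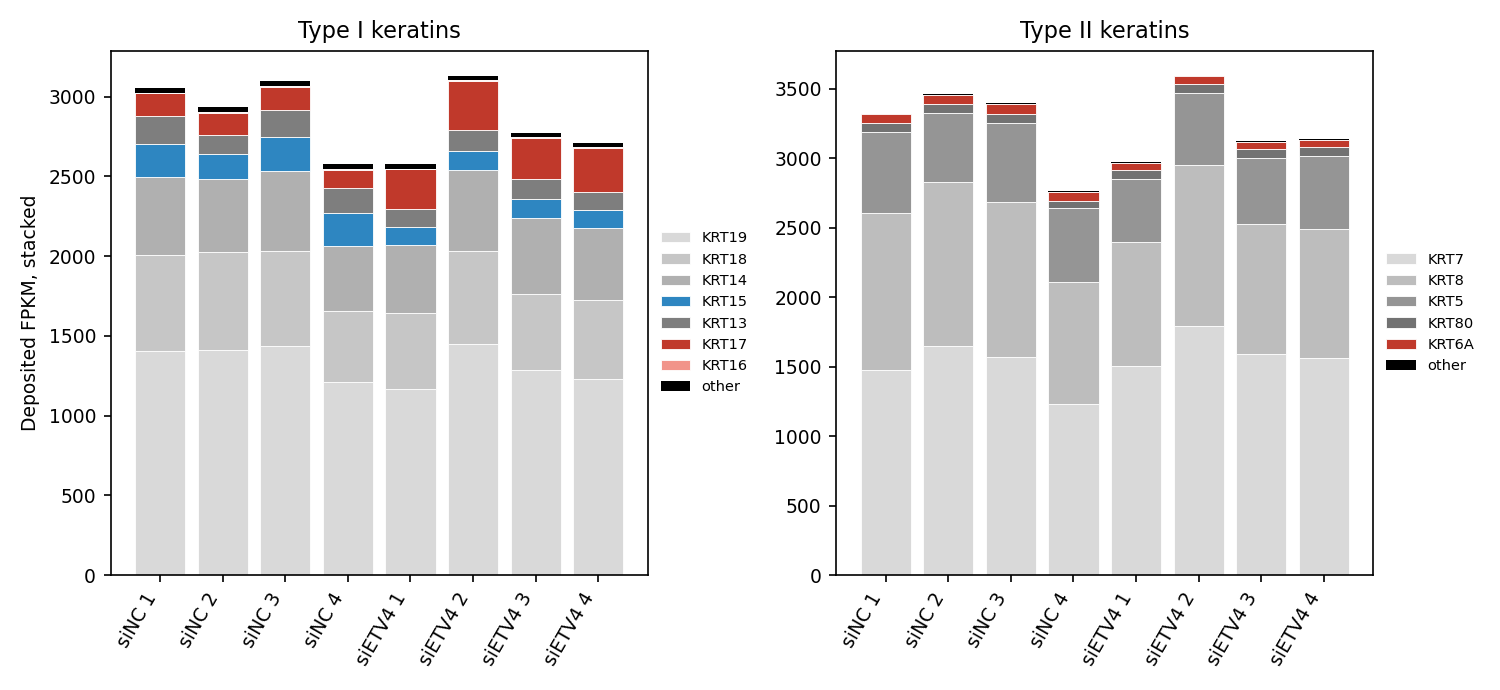
Deposited FPKM of type I keratins (left) and type II keratins (right) stacked in each library, with KRT17, KRT16 and KRT6A in red tones, KRT15 in blue and other keratins in grey or black. KRT17 widens from 4.48 to 4.72% of the type I stack in siNC to 9.38 to 10.1% in siETV4, while the KRT15 band narrows and the totals overlap.

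Whether KRT17 moved apart from its partners was tested within libraries by the ratio of its counts to those of another keratin, a measure that no scaling of libraries can alter. The differences in log2 ratio are siETV4 minus siNC, and 5 ratios were tested; that to KRT6B was not made, since its counts were under 10 in all but 1 library. The ratio to KRT16 was 40.0, 30.2, 32.0 and 36.6 in siNC replicates 1 to 4 and 48.5, 56.2, 51.6 and 53.2 in siETV4 replicates 1 to 4. It was thus higher in every siETV4 library, by 0.60 on the log2 scale. The ratio to KRT6A was 1.45, 1.36, 1.32 and 1.18 in siNC replicates 1 to 4 and 2.91, 3.57, 3.15 and 3.44 in siETV4 replicates 1 to 4, a difference of 1.30. KRT6 chains are the usual type II partners of KRT16 and KRT17, and here KRT17 and KRT6A moved apart.

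The ratio to KRT14, the basal type I keratin some 37.4 kb away, was the tightest, at 0.275, 0.283, 0.268 and 0.265 in siNC replicates 1 to 4 and 0.536, 0.556, 0.509 and 0.563 in siETV4 replicates 1 to 4. The difference was 0.99 (SD of the log2 ratio 0.04 in siNC and 0.07 in siETV4). To KRT5, the basal type II keratin, the difference was 1.15. To KRT15, a type I keratin of basal keratinocytes and hair follicle stem cells, it was 1.78, and KRT17 passed from 0.350 to 1.20 times the KRT15 counts (geometric means). In each of the 5 ratios all 4 siETV4 libraries lay above all 4 siNC libraries, which gives the smallest p that 4 libraries against 4 allow (exact two-sided permutation test, p = 0.0286, Benjamini-Hochberg adjusted p = 0.0286 over the 5 ratios). All 5 share the KRT17 counts and are not independent of each other. For KRT6A and KRT15 the outcome was fixed by the levels: both were lower in every siETV4 library, and KRT17 was higher in every one. KRT14 and KRT5 moved little (log2 fold change -0.03 and -0.19), so their ratios largely restate the KRT17 difference.

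**Figure D3:**
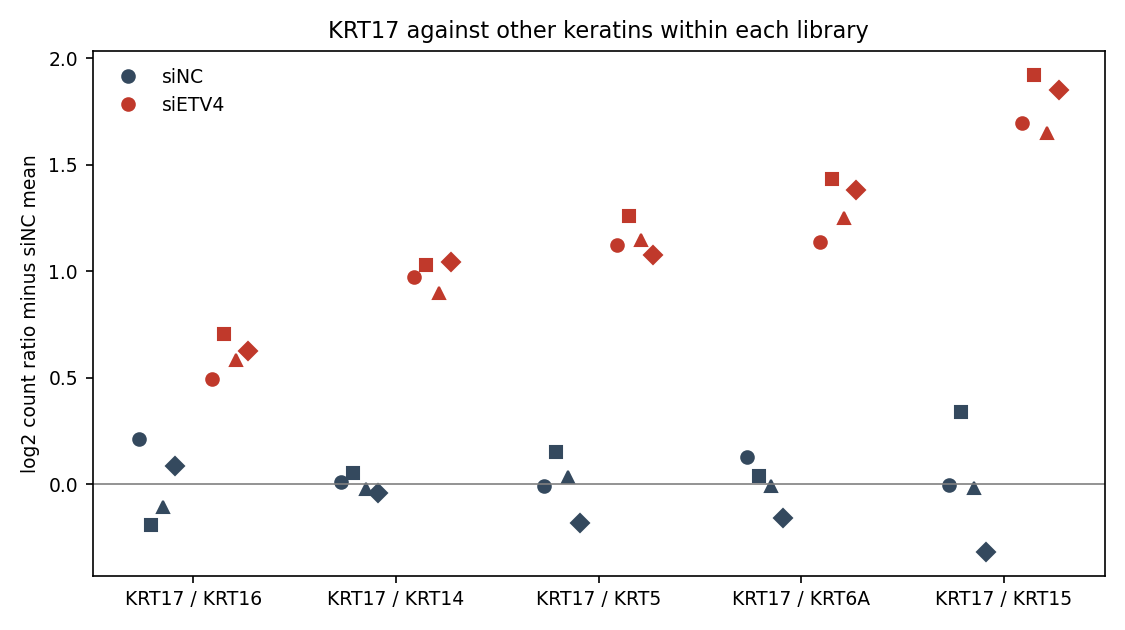
Log2 ratio of KRT17 counts to those of 5 other keratins (horizontal axis) in each library, relative to the siNC mean (vertical axis). Symbol shapes are replicates 1 to 4 (circle, square, triangle, diamond). The siETV4 libraries lie above the siNC libraries for each partner, by 0.60 for KRT16 up to 1.78 for KRT15.

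Among the other keratins, 15 were tested and 1 was called, KRT15, which fell. Of all genes tested, 0.236% were called and 0.118% were called lower. It stood at 336 ± 15.3 CPM in siETV4 against 599 ± 72.8 CPM in siNC (SD over 4 libraries each), with a log2 fold change of -0.83 (SE 0.10, edgeR adjusted p 0.00636). Of all 18 keratins tested, 8 had a positive and 10 a negative log2 fold change, against 6568 positive among the 13572 genes tested. The hair keratin KRT81 had a log2 fold change close to that of KRT17 (0.97, SE 0.21) at a far lower level (3.40 against 1.74 CPM). It did not pass (edgeR adjusted p 0.125), but passed with DESeq2 (adjusted p 0.0104) and by edgeR when siNC replicate 4 was left out (0.0218), when trends with GC content and length were removed (0.0242) and with both steps (0.00963). KRT81 was the 1 of 3 tested hair keratins with these calls, and limma-voom called none of the 3. Of all genes, DESeq2 called 0.452% higher, and edgeR 0.882% once trends with GC content and length were removed. Without siNC replicate 4, edgeR called 1654 of all 13783 genes tested higher. With both steps it called 811 of 12602 genes, higher or lower. Simple-epithelial KRT7 and KRT8 had log2 fold changes of 0.08 (SE 0.12) and -0.19 (SE 0.13). KRT13, a mucosal keratin, and KRT10 had -0.37 (SE 0.12) and -0.31 (SE 0.10), and both passed only without siNC replicate 4 (edgeR adjusted p 0.0412 and 0.0366), where 4.88% of all genes were called lower.

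**Figure D4:**
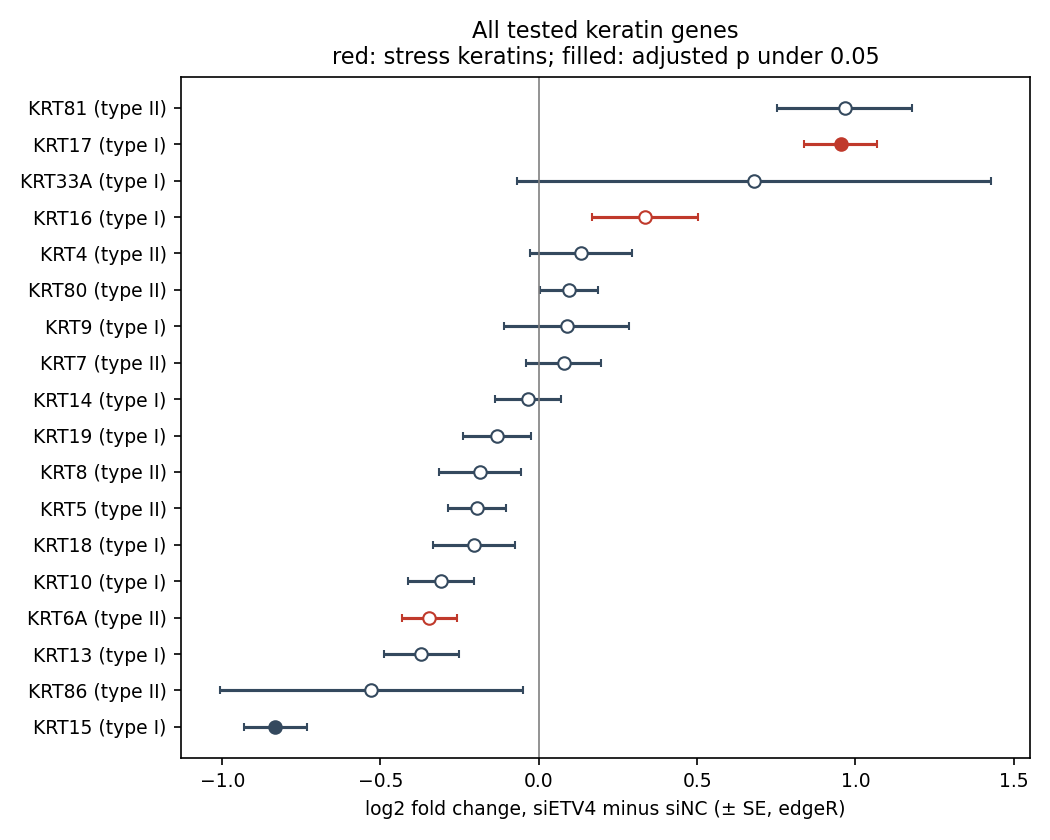
Log2 fold change (siETV4 minus siNC, ± SE, horizontal axis) of the 18 tested keratin genes. Stress keratins are red, and filled points passed an adjusted p of 0.05. KRT17 (0.95) and KRT15 (-0.83) are the filled points, with KRT16 at 0.33 and KRT6A at -0.35.

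No tested neighbour of KRT17 on chromosome 17 was called higher. From the KRT17 midpoint, KRT16 lies 10.7 kb away, KRT14 37.4 kb (log2 fold change -0.03, SE 0.10), KRT9 53.1 kb (0.09, SE 0.20), KRT19 96.0 kb (-0.13, SE 0.11) and KRT15 105.7 kb. On the other side EIF1, a translation initiation factor gene 68.8 kb away, had a log2 fold change of -0.05 (SE 0.11). Apart from KRT15, none of these neighbours was called. Beside KRT16 and KRT17, 10 genes of this cluster and its flanks were tested. At an unadjusted p under 0.05, 0 of the 10 were higher and 3 lower, against 12.6% of all genes tested. The 3 were KRT15, KRT13 (118.7 kb, log2 fold change -0.37) and KRT10 (801.6 kb, -0.31). Without siNC replicate 4, edgeR called 0 higher and 3 lower, where 4.88% of all genes were called lower. In the KRT6 region, KRT5 lies 27.3 kb from KRT6A and had a log2 fold change of -0.19 (SE 0.09, edgeR adjusted p 0.404). No gene of the chromosome 12 cluster and its flanks was called among 11 tested beside KRT6A (edgeR). Of these, 1 had an unadjusted p under 0.05, KRT81, against 12.6% of all genes tested. DESeq2 called KRT81 (0.452% of all genes called higher) and limma-voom did not.

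Regulators and inducers of the stress keratins were examined as a list of 36 genes that includes NRF2, AP-1, NF-kB and SP1 factors, EGF-type ligands with their receptor, interleukin-1 and interferon-gamma receptor genes. Of 35 tested, 0 were called by edgeR, and 0 by DESeq2 or limma-voom. At an unadjusted p under 0.05, 7 were higher and 5 lower, 34.3% of the list against 12.6% of all genes tested. The median log2 fold change was 0.04, against -0.01 over all genes. Its most abundant members were EGFR (log2 fold change 0.04, SE 0.16), the receptor whose ligands induce KRT6 and KRT16, and the AP-1 subunit JUNB (-0.13, SE 0.09). Named after their values were seen, IRF1, a transcription factor gene induced by interferon-gamma, stood at 175 ± 5.74 CPM in siETV4 against 208 ± 9.42 CPM in siNC (log2 fold change -0.25, SE 0.08). NFE2L2, which encodes NRF2, had a log2 fold change of 0.05 (SE 0.22). Neither passed (edgeR adjusted p 0.262 and 0.930). Without siNC replicate 4, 5 of the list were called higher and 4 lower, where 1654 of all 13783 genes tested were called higher and 673 lower. Once trends with GC content and length were removed 0 were called.

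Proteins that bind or modify the stress keratins formed a second list, with the desmosomal and plakin linkers of keratin filaments and the 14-3-3 proteins. Of 24 tested, 0 were called by edgeR, DESeq2 or limma-voom, and 0 were higher and 5 lower at an unadjusted p under 0.05 (20.8%, against 12.6% of all genes tested). Without siNC replicate 4, edgeR called 4 higher and 4 lower, where 1654 of all 13783 genes tested were called higher and 673 lower. The median log2 fold change was -0.07. The chaperone HSPA8 had a log2 fold change of 0.07 (SE 0.09), and JUP, the desmosomal plakoglobin, -0.16 (SE 0.10).

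Genes that keratinocytes switch on together with KRT6, KRT16 and KRT17 in wounds and psoriasis gave 26 tested members of 33. Here 1 was called, PI3, which rose: this gene of elafin, a secreted inhibitor of neutrophil elastase, stood at 23.8 ± 2.85 CPM in siETV4 against 11.97 ± 1.75 CPM in siNC (SD, n = 4 each; log2 fold change 0.99, SE 0.15, edgeR adjusted p 0.0216). PI3 lost its call without siETV4 replicate 1, 3 or 4 or without siNC replicate 2 or 3 (edgeR adjusted p 0.0562, 0.112, 0.0933, 0.0877 and 0.0717). Of all genes tested, edgeR called 0.236%, and 0.118% higher. The median log2 fold change of the list was 0.28, with 19 of 26 positive. At an unadjusted p under 0.05, 9 were higher and 1 lower (38.5%, against 12.6% of all genes tested). DESeq2 called 4 higher and 0 lower (0.797% of all genes called). With limma-voom 2 were higher and 0 lower, where 22 of all 13572 genes tested were called higher and 20 lower. Once trends with GC content and length were removed, edgeR called 5 higher and 0 lower (1.76% of all genes called). Without siNC replicate 4 it called 7 higher and 1 lower, where 1654 of all 13783 genes tested were called higher and 673 lower. The most abundant members, the calcium-binding proteins S100A11 and S100A10, had log2 fold changes of -0.03 (SE 0.10) and -0.11 (SE 0.11).

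Differentiation genes had 11 tested members of 25. None was called by edgeR with all libraries and no correction for GC content and length, or by limma-voom. At an unadjusted p under 0.05 there were 1 higher and 2 lower (27.3%, against 12.6% of all genes tested). DESeq2 called 0 higher and 1 lower, as did edgeR once trends with GC content and length were removed. Of all genes, 0.345% were called lower by DESeq2 and 0.874% by edgeR with the trends removed. Without siNC replicate 4, edgeR called 1 higher and 1 lower, against 16.9% of all genes. The median log2 fold change was -0.10. The protease KLK5 had a log2 fold change of -0.09 (SE 0.11) and NOTCH1, a receptor that promotes differentiation, -0.48 (SE 0.18, edgeR adjusted p 0.343).

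The genes whose levels most resembled each member over the 8 libraries were found by Pearson's r of log2 CPM among the 10987 genes whose log2 CPM averaged 1 or more. The r values describe 8 points that share siRNA group, depth and GC content trend. For KRT17 they were the chemokine CCL5 (r 0.99), THEM4 (0.97), the antimicrobial protein LCN2 (0.97), the protease inhibitor SLPI (0.97) and the cytokine IL32 (0.97). Among genes with opposite levels, CORO1C, which binds actin, had r -0.98. When the group means were subtracted, r with KRT17 ranged from 0.74 (IL32) to 0.88 (CCL5) for these 5 genes.

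KRT16 was most like GTPBP2 (r 0.97), the autophagy receptor SQSTM1 (0.97), SHLD1 (0.96), TRIM16 (0.96) and HSBP1L1 (0.95), and most unlike PAIP2 (-0.97) and ANKRD33B (-0.94). Subtracting group means left SQSTM1 at 0.98 and TRIM16 at 0.96, so this likeness lay mostly within the groups. The SQSTM1 level was 1357 CPM in siETV4 against 1200 CPM in siNC (log2 fold change 0.18, edgeR adjusted p 0.518). KRT6A was most like CANT1 (r 0.98), RMND5B (0.98), the adaptor SHC1 (0.98), MAX, the partner of MYC (0.98, rounded from 0.975), and AP1M1 (0.97), and most unlike CDC16 (-0.99) and CTSS (-0.98). The 3 lists shared no gene. Between the members, r was 0.82 for KRT17 with KRT16, -0.77 for KRT17 with KRT6A and -0.36 for KRT16 with KRT6A. With the group means subtracted all 3 were positive, at 0.76, 0.72 and 0.86.

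The 3 tested members kept their direction under every alternative plotted for them. KRT17 ranged from 0.87 (SE 0.10) without siNC replicate 4 to 1.07 with trends in GC content and length removed. Leaving out any 1 of the 8 libraries kept its call, with edgeR adjusted p from 6.11e-04 to 0.0423. With the replicate number as a block, which is not plotted, the log2 fold change was 0.96 and the call was lost (edgeR adjusted p 0.0562), where 0.0295% of all genes were called, 0.0147% in each direction. When trends with GC content and length were removed as well as the block, KRT17 was called (log2 fold change 1.07, SE 0.06, edgeR adjusted p 0.0002). That fit called 100 of 12470 genes tested.

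**Figure D5:**
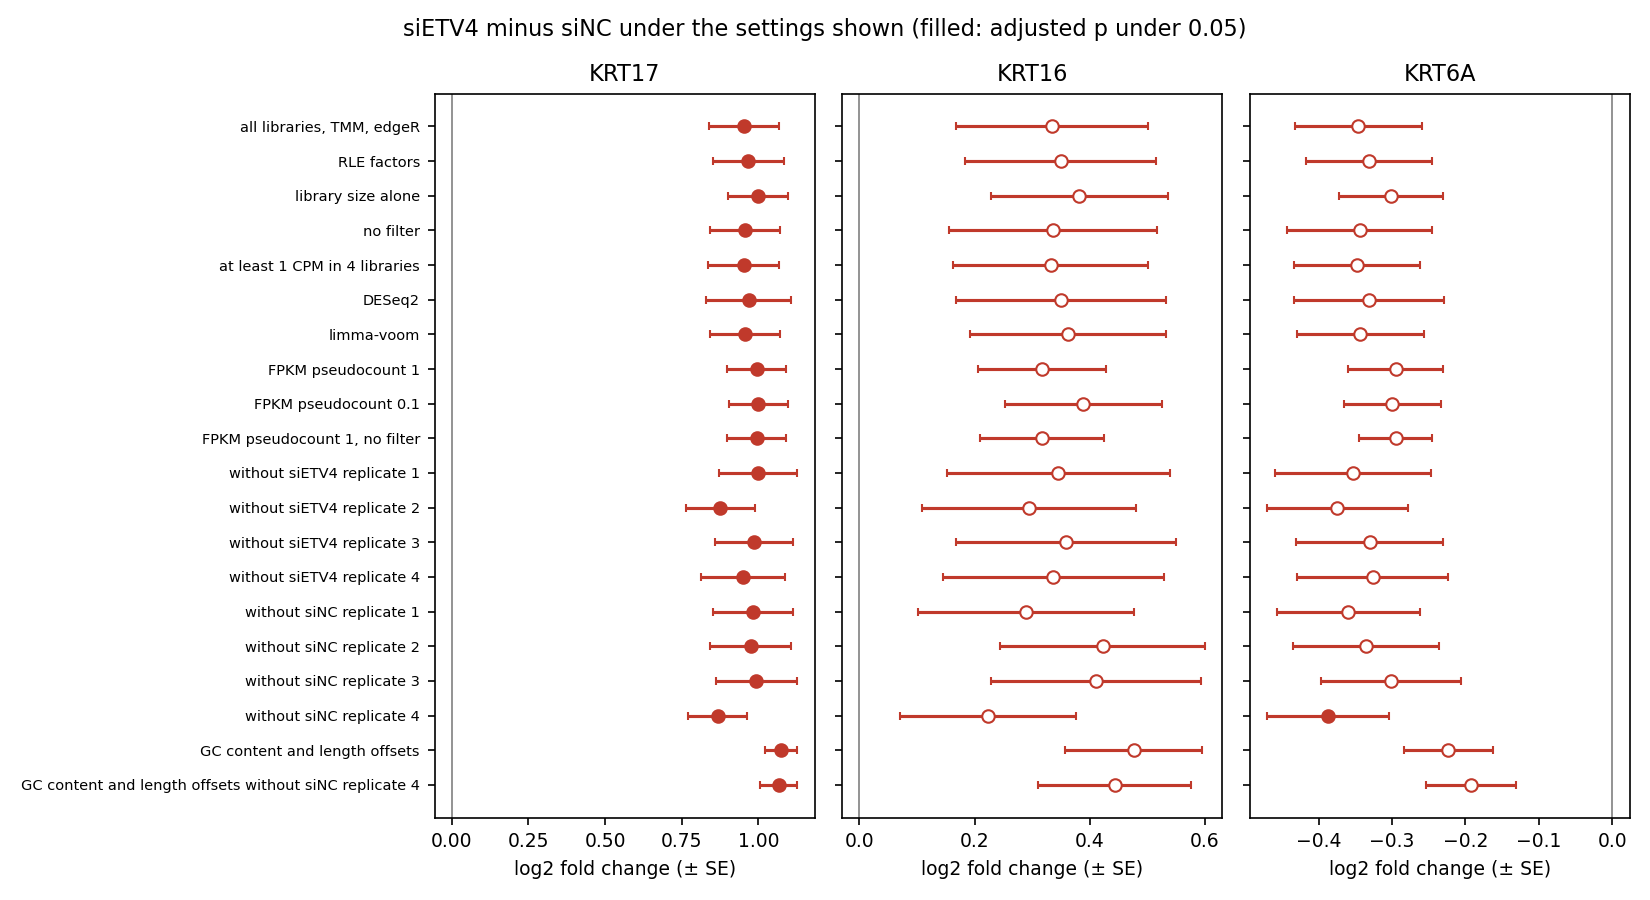
Log2 fold change (± SE, horizontal axes with different scales) of KRT17, KRT16 and KRT6A under the settings shown (rows, without the fits with a replicate block), filled where the adjusted p was under 0.05. KRT17 stays between 0.87 and 1.07 and is filled in each row shown, KRT16 is filled in none, and KRT6A is filled in 1 row, without siNC replicate 4.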

How the data were processed

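Total RNA of 8 HaCaT libraries was measured, and groups and replicate numbers come from the sample titles. The authors deposited whole-number counts per gene symbol and FPKM values. Per the submitters' processing notes the build is hg38 and R 3.2.0 was used. For aligner, counter, annotation and strand, the sources used here give nothing. The deposited FPKM values equal count over library total and a gene length, which was the same in every library for 20584 of 20585 genes (relative tolerance 1e-06). Counts were fitted in R 4.3.3 with edgeR 4.0.16 (filterByExpr with a minimum count of 10, TMM, quasi-likelihood test, Benjamini-Hochberg over 13572 genes, called under 0.05). Alternatives used DESeq2 1.42.0 and limma 3.58.1 and, for GC content (GENCODE v29, 91.9% of tested genes) and length, offsets from splines with 5 degrees of freedom. The tests were checked on simulated data. The members, gene lists and alternatives were chosen with earlier results of these data known. Named are all members, from each list up to 4 called genes or the 2 most abundant, and the 5 genes most and 2 least like each member, of which 1 is not reported here. Sequences were read from GENCODE v29 transcripts.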

Additional observations from a re-analysis of the deposited data

Results flagged for a closer look

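With 28 groups of 4 libraries examined, 1 in 20 is expected to hold a sample far from the others by chance, and 3 did. For KRT17 in siNC, the gap between replicate 4 (171 CPM) and the next library took up 0.853 of the range of the group (219 to 227 CPM in the other 3), above Dixon's critical value for 4 samples. The same library was far from the rest in the share of KRT17 in type I keratin FPKM (gap 0.917 of the range), at 4.48% against 4.70 to 4.72%. In siETV4, KRT6B in replicate 4 had 3 counts against 1 in each of the other libraries (gap 0.988 of the range in CPM), which is no more than the count floor of 3.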

How the results depend on the processing

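KRT17 passed in 12 of 13 alternatives that did not just leave out 1 library, and in each of the 8 fits without 1 library (log2 fold change 0.87 to 1.00). The exception was the replicate block without GC content and length offsets, with 0.96 and an edgeR adjusted p of 0.0562. Same-numbered deviations correlated at -0.19 to 0.30, and 1 of 4 siETV4 libraries correlated best with its own number. This cannot decide whether same-numbered cultures were handled together, since GC content trends also differed between libraries (rho -0.65 to 0.64). KRT16 passed in none (0.22 to 0.42 without 1 library), and KRT6A (-0.39 to -0.30) passed without siNC replicate 4 only. The 5 ratios moved by less than 1 SD without 1 library, but 3 against 4 libraries or 4 pairs cannot go below p of 0.0571 and 0.125. The genes called numbered 32, and 54 without a filter, 164 with DESeq2, 59 with FPKM at either pseudocount, 4 with the replicate block, 219 with GC content and length offsets, 100 with these and the replicate block, 811 with these and without siNC replicate 4 (chosen after seeing the data), 9 at an adjusted p under 0.01, 60 under 0.1, and 9 to 2327 without 1 library, the highest without siNC replicate 4. The cause was not tested. Sums with KRT16 or KRT17 pseudogenes could not be made, since the table has no such rows. KRT6C, and KRT6B in siETV4, are near the floor of 3 counts, which limits what can be said of them.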
